A study of Mus musculus with 40 samples.

Results

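Subcutaneous white adipose tissue (sWAT) of mice that stayed on a high-fat diet (HFD) and received semaglutide was set against sWAT of mice whose diet was switched back from HFD to a normal diet (ND). The 16 libraries were chosen by their labels alone, 8 semaglutide and 8 diet-switch libraries of the 40 in the series. The other libraries are tirzepatide on HFD, HFD alone and ND alone, with 8 libraries in each of the 5 groups. Semaglutide mimics the incretin hormone GLP-1 and lowers food intake, and tirzepatide acts on the receptors of both GIP and GLP-1. The compared groups therefore differ in diet as well as in drug, and HFD against ND shows the diet difference in mice labelled with neither a drug nor a switch. The design text asks what incretin analogs restore in fat and what they leave altered. No dose, duration, age, sex or strain is given in the labels. The series title places a dietary intervention after incretin treatment, and the labels of the diet-switch libraries name no drug. They do not say that each library is a separate animal, so a p-value speaks only of library-to-library spread, part of which may be technical.

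White adipocytes take up fatty acids from circulating lipoproteins, store them as triglyceride in a lipid droplet coated with perilipins, and release them again under adrenergic stimulation. They can also make fatty acids from glucose, a route that carbohydrate and insulin induce and dietary fat suppresses. Obese fat produces more leptin and takes up macrophages that hold lipid.

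Each library was made with a QuantSeq kit, which reads the ends of transcripts, so that counts follow transcript numbers with no division by length. Totals ran from 3134115 to 4203802 counts in semaglutide libraries and from 2802605 to 4440695 in diet-switch libraries. Of 34843 gene symbols in the table, 15807 had enough counts to be tested, and these hold 99.39% of the counts. Adipocyte markers were present in every library, with a summed level of 18530 to 33380 CPM (counts scaled to 1 common library total) in semaglutide libraries and 22930 to 34070 CPM in diet-switch libraries over the list of adipocyte identity genes.

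Some libraries stood apart. Semaglutide libraries 1, 3 and 8 were high in B and T cell genes. Over the B cell list the summed level was 83.76, 247.1 and 1914 CPM (lowest, median and highest) in semaglutide libraries, against 41.89, 141.9 and 306.2 CPM in diet-switch libraries. Diet-switch libraries 1, 3 and 6 were high in skeletal muscle genes, whose summed level was 69.87, 99.7 and 505.6 CPM in semaglutide libraries, against 111.6, 271.1 and 4402 CPM in diet-switch libraries, and Mb of that list was at 0 in both groups. Along the first axis of variation within groups, diet-switch libraries 3, 4 and 7 lay at 80.6, 73.1 and 62.1, and the other 5 between -32.3 and 23.5. Diet-switch 1 (-32.3) and 2 (-23.7) formed the other end and were kept. Semaglutide libraries lay between -28.4 and 21.8, so the end set aside was the one farthest from them. Results are therefore also given without the libraries high in lymphocyte genes, those high in muscle genes, or diet-switch 3, 4 and 7, where a call ends. A call that ends there need not mean a smaller difference, since fewer libraries remain in the fit. For some genes the difference itself was also smaller, and for others it was not.

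**Figure D1:**
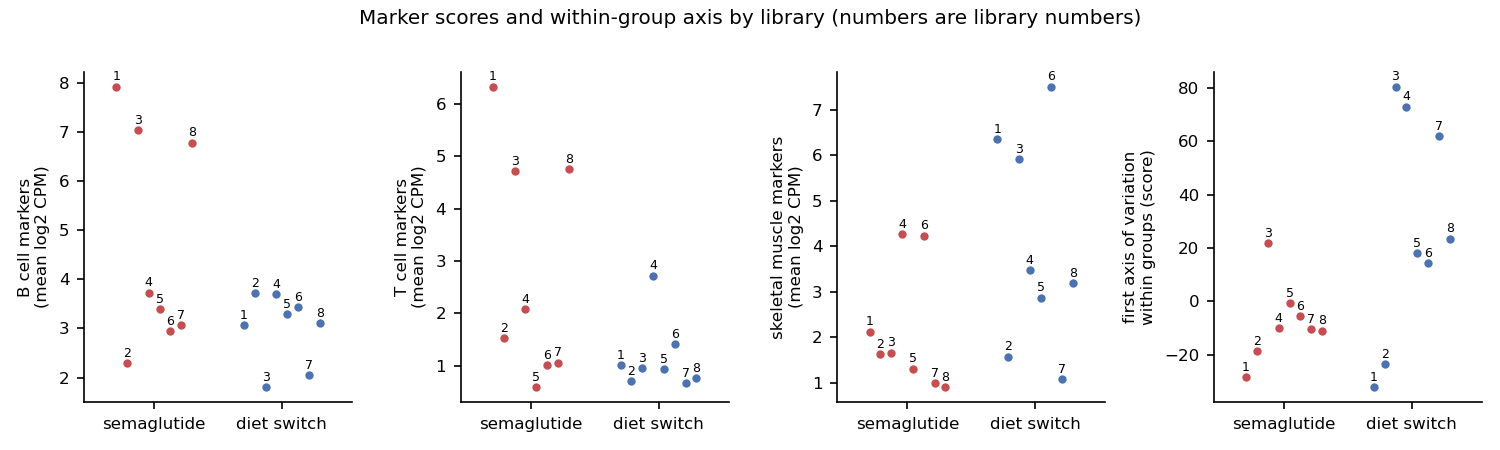
B cell, T cell and skeletal muscle scores (mean log2 CPM over the 3, 7 and 13 tested genes of each marker list) and the position along the leading within-group axis of variation, for the 8 semaglutide libraries (left) and the 8 diet-switch libraries (right), with each library's number. Semaglutide 1, 3 and 8 reach B cell scores of 7.92, 7.04 and 6.78, and diet-switch 3, 4 and 7 lie at 80.6, 73.1 and 62.1 on the axis.

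With semaglutide, 994 genes (6.29% of those tested) were higher and 1107 (7%) were lower than after the diet switch at a Benjamini-Hochberg adjusted p under 0.05 in edgeR's quasi-likelihood test, which is what "called" means throughout. Of these, 336 were more than 2-fold higher and 365 more than 2-fold lower. The median over all tested genes was 0.01 on the log2 scale, a value that TMM scaling holds near 0. For 110 genes (0.696%) the 8 libraries of one group lay entirely beyond those of the other, 37 higher (0.234%) and 73 lower (0.462%) with semaglutide. The counts depended on which libraries were in the fit. Without diet-switch libraries 3, 4 and 7, 55 genes were higher and 221 lower. Leaving out a single library brought the number of higher genes to 589 (semaglutide 1), 624 (diet-switch 3), 654 (diet-switch 4) or 620 (diet-switch 7). Leaving out diet-switch 1 or 2, at the other end of the axis, raised it to 1296 or 1375. Without the semaglutide and ND libraries high in lymphocyte genes the numbers were 511 and 719, and without all libraries high in muscle genes 576 and 916.

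Genes of fatty acid synthesis were lower with semaglutide on HFD than after the switch. Of the 10 tested genes of de novo lipogenesis, 9 were lower with semaglutide than after the diet switch and none was higher, against 7% lower among all genes, and the list's median log2 fold change was -1.62, against 0.01 over all genes. Of the 9, Acacb is the mitochondrial carboxylase. The others run along the route, from citrate cleavage (Acly) and acetate activation (Acss2, -1.65) through carboxylation (Acaca) and chain synthesis (Fasn) to elongation (Elovl6), desaturation (Scd1, Scd2) and the supply of NADPH (Me1). The count stayed at 9 or 10 in every fit that left out one library, and at 9 or more without the lymphocyte-high, the muscle-high or the 3 outlying diet-switch libraries. In bulk tissue, fewer cells of a type and less RNA per cell cannot be told apart. The summed level of adipocyte identity genes given above overlapped between the groups.

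Fasn (chr11:120805846-120824547, minus strand, mm10), the fatty acid synthase, had a lowest, median and highest level of 301, 436 and 1141 CPM in semaglutide libraries, against 635, 2708 and 6492 CPM in diet-switch libraries. The difference was -2.67 ± 0.36 on the log2 scale (SE, n = 8 each, adjusted p = 2.05e-05). Acaca (chr11:84129672-84401651, plus strand), the carboxylase that makes malonyl-CoA, had 46.8, 66.2 and 112 CPM with semaglutide and 108, 276 and 707 CPM after the switch (-2.23 ± 0.27, adjusted p = 2.62e-06). Acly, which cleaves citrate to acetyl-CoA, had 87.0, 106 and 127 CPM with semaglutide, a narrow band, and 109, 471 and 1380.1 CPM after the switch (-2.41 ± 0.34, adjusted p = 2.99e-05). For Fasn, Acaca and Acly the lowest diet-switch library fell within the range of the semaglutide libraries and the other 7 lay above it. Scd1, the main stearoyl-CoA desaturase of adipose tissue, had 2074, 4853 and 6239 CPM with semaglutide and 6899, 11199 and 18931 CPM after the switch (-1.35 ± 0.20, adjusted p = 2.99e-05), and its groups did not overlap. Elovl6, which lengthens palmitate, differed by -2.63 ± 0.43 (adjusted p = 1.37e-04), Acacb, the mitochondrial carboxylase, by -1.58 ± 0.23 (adjusted p = 2.96e-05), and Me1, the malic enzyme, by -1.03 ± 0.23 (adjusted p = 0.00266). The diet-switch libraries spread widely for Fasn, Acaca, Acly and Elovl6, while the semaglutide libraries lay closer together.

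The promoters of 3 members are printed here because the list moved together and because they carry motifs of factors with textbook roles in lipogenesis. They are the 250 bases before the RefSeq start (GRCm38.p6), 5′ to 3′ on the gene's strand, with the CCAAT box (CCAAT) and the E-box (CACGTG) in capitals, both searched on both strands (ATTGG is the CCAAT box read on the other strand).
Fasn chr11:120824548-120824797 minus strand: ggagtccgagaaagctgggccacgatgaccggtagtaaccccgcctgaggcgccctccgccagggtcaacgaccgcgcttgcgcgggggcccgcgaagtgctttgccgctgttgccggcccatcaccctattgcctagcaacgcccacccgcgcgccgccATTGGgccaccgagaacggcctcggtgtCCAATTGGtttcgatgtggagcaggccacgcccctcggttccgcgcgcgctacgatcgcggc
Slc25a1 chr16:17928220-17928469 minus strand: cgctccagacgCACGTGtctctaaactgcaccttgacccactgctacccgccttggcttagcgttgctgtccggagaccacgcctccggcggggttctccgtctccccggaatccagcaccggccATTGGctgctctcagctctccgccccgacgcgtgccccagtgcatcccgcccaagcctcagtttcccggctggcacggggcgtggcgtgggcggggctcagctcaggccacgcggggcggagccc
Acacb chr5:114165268-114165517 plus strand: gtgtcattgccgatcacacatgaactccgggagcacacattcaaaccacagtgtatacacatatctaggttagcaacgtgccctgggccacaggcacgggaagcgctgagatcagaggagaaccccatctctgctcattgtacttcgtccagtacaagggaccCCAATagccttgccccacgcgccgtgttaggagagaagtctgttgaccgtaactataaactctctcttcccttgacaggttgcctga
The RefSeq promoter table matched 8 of the 10 list genes. A CCAAT box stood in the window of 5 of them, against 33.8% of all 32851 promoters searched, and an E-box in 1, that of Slc25a1, against 6.02%. The nuclear receptor half-site AGGTCA stood in 2 of the 8, against 14%, and the core of the sterol regulatory element, TCACCCC, in none, against 4.31%. The list counts are per gene and the percentages per promoter, and a gene can have several promoters, as Me1 had. The Acaca window (chr11:84195188-84195437) lies inside the gene's span given above, so it may not be the promoter in use in fat. A match is a run of letters and no evidence of binding. Slc25a1, the mitochondrial citrate carrier, was the list member not called.

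**Figure D2:**
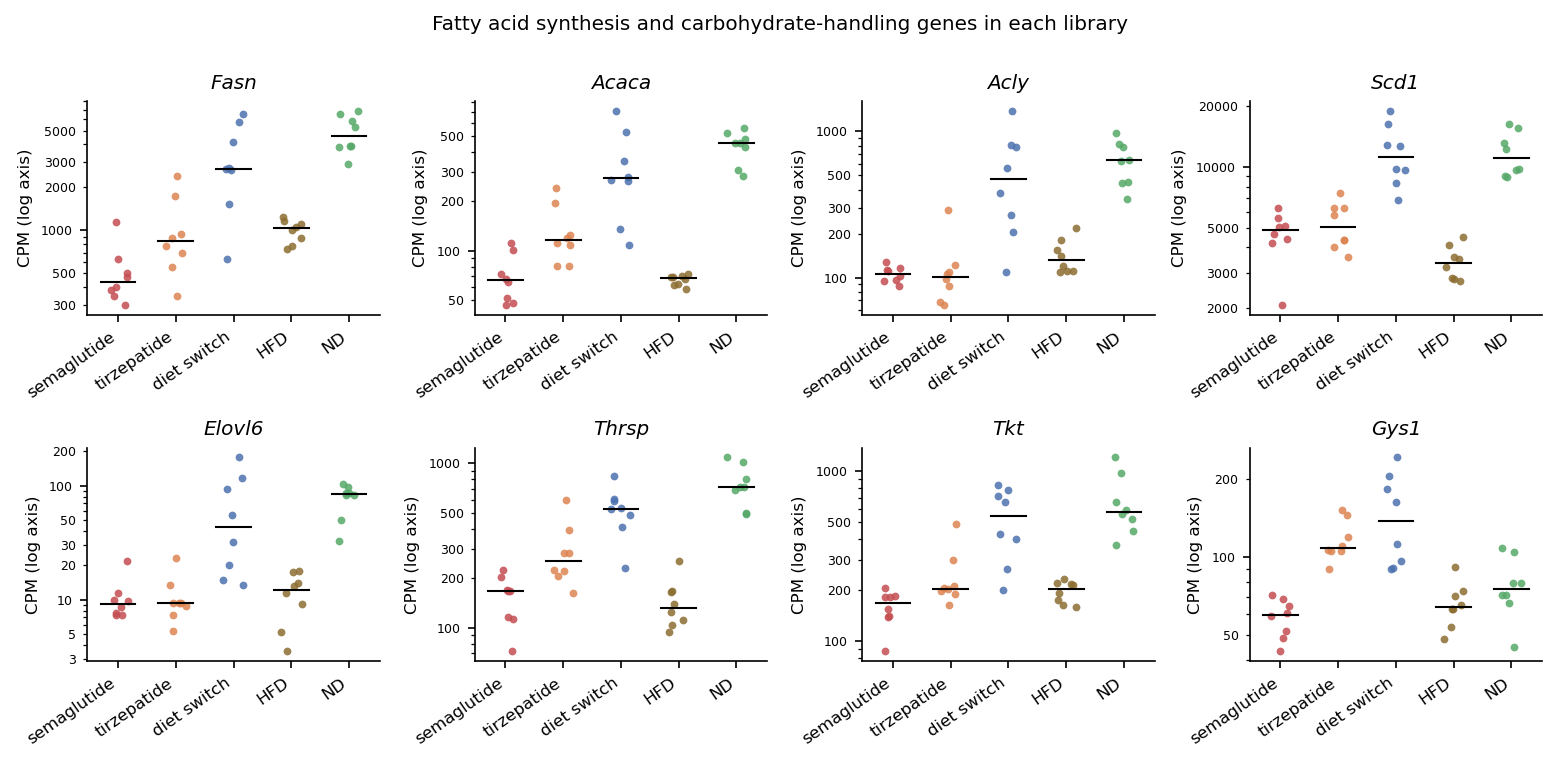
Levels in CPM (log axis) of Fasn, Acaca, Acly, Scd1, Elovl6, Thrsp, Tkt and Gys1 in each library of the 5 groups, with bars at the group medians (n = 8 per group). Semaglutide medians lie below diet-switch medians for each gene, with no overlap for Scd1, Thrsp and Gys1, and HFD libraries lie below all ND libraries for Fasn, Acaca, Acly, Scd1 and Elovl6.

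Thrsp (Spot14), a nuclear protein that follows the lipogenic rate, had 71.9, 167 and 224 CPM with semaglutide and 232, 528 and 837 CPM after the switch (-1.78 ± 0.25, adjusted p = 2.05e-05), with no overlap. Of the 11 lipogenic regulators tested 27.3% were called, against 13.3% in either direction among all genes, and Thrsp was the member that was lower. Srebf1, the insulin-responsive activator of lipogenesis, had 36.7, 83.6 and 116 CPM with semaglutide and 44.6, 116 and 174 CPM after the switch (-0.35 ± 0.33, adjusted p = 0.515), and Mlxipl, which encodes the glucose-sensing factor ChREBP, had 20.9, 30.1 and 40.4 CPM with semaglutide and 18.8, 25.0 and 39.1 CPM after the switch (0.09 ± 0.17, adjusted p = 0.771). Neither passed the test. Srebf2 and Insig2 of the same list were higher by 0.61 and 0.60, but those calls ended without diet-switch 3, 4 and 7 (adjusted p = 0.233 and 0.269) and without several single libraries. Among 8 genes of NADPH supply 1 was called (12.5%, near the 13.3% among all genes). It was Tkt, the transketolase of the pentose phosphate pathway, at 87.5, 169 and 207 CPM with semaglutide and 200.1, 545 and 834 CPM after the switch (-1.74 ± 0.25, adjusted p = 2.71e-05).

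Single genes of sugar entry and glycogen are given here. Slc2a4, which encodes the insulin-responsive glucose transporter GLUT4, had 51.0, 63.1 and 78.2 CPM with semaglutide and 77.2, 99.1 and 168 CPM after the switch (-0.76 ± 0.15, adjusted p = 8.51e-04). The others were picked after their values were seen. Gys1, the muscle-type glycogen synthase that adipocytes also use, had 43.1, 59.8 and 71.4 CPM with semaglutide and 89.8, 138 and 243 CPM after the switch (-1.34 ± 0.18, adjusted p = 1.62e-05), with no overlap. Pygl, a glycogen phosphorylase, differed by -1.11 ± 0.17 (adjusted p = 5.74e-05). Slc2a5, the fructose transporter, had 0, 0.116 and 1.23 CPM with semaglutide and 0.440, 6.19 and 11.2 CPM after the switch (-4.01 ± 0.70, adjusted p = 1.57e-04), so that most semaglutide libraries were near 0.

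Of 17 glycolysis genes 4 were lower (23.5%, against 7% among all genes) and none higher (median -0.32). Aldoa, the muscle-type aldolase, differed by -0.91 ± 0.19 (adjusted p = 0.00116), and Slc16a1, the monocarboxylate transporter MCT1, by -1.13 ± 0.22 (adjusted p = 6.36e-04). The calls of Eno1 (-0.47) and Ldha (-0.44) each ended without several single libraries. Of 10 genes of glyceroneogenesis and pyruvate use 4 were lower (40%, median -0.37), among them Pcx, pyruvate carboxylase, at -0.76 ± 0.17 (adjusted p = 0.00218), and Pdhb, a pyruvate dehydrogenase subunit, at -0.63 ± 0.17 (adjusted p = 0.0103). Pdha1 differed by -0.75, a call that ended without diet-switch 3, 4 and 7 (adjusted p = 0.0733), and Pdk4 by -0.96, a call lost without several single libraries. Pck1, the gene of the cytosolic enzyme that makes glycerol backbone from lactate, had 554, 741 and 1306 CPM with semaglutide and 690.4, 1062 and 1804 CPM after the switch (-0.43 ± 0.27, adjusted p = 0.291) and did not pass the test. Of 16 genes of insulin signalling and glucose transport 5 were lower, 1 was higher and 10 did not pass, with a median of 0.08. The called share was 37.5%, against 13.3% in either direction among all genes. Besides Slc2a4 the lower ones included Insr, Grb14 and Pde3b, with log2 fold changes of -0.71, -0.95 and -0.61, and none of these 3 calls held without diet-switch 3, 4 and 7 (adjusted p = 0.612, 0.139 and 0.344). In that fit their log2 fold changes were -0.26, -0.76 and -0.45.

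Triglyceride and cholesterol synthesis had 14.3% and 9.09% of their genes called, near the 13.3% among all genes. Of 14 triglyceride synthesis genes 2 were lower, Gpat4 at -0.56 and Lpin2 at -0.52, and without diet-switch 3, 4 and 7 neither was called (adjusted p = 0.212 and 0.583). Their log2 fold changes in that fit were -0.41 and -0.24. Of 22 genes of cholesterol synthesis and uptake 2 were lower, Acat2 (-0.74 ± 0.15, adjusted p = 7.16e-04), an acetoacetyl-CoA thiolase, and Pmvk (-0.74 ± 0.19, adjusted p = 0.00777), phosphomevalonate kinase. Hmgcs1, an early enzyme of that route, had 55.8, 161 and 327 CPM with semaglutide and 90.6, 126 and 215 CPM after the switch (0.34 ± 0.23, adjusted p = 0.341).

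Leptin and genes that accompany enlargement of fat depots were higher with semaglutide on HFD than after the switch. Of 6 tested fat expansion genes 3 were higher and none lower, against 6.29% higher among all genes, and their median was 0.88. On HFD against ND, too, 3 were higher (2.83% among all genes, median 1.13). Lep, the leptin gene, had 387, 879 and 2396 CPM with semaglutide and 355, 407 and 850.1 CPM after the switch (1.07 ± 0.29, adjusted p = 0.0124), and the groups overlapped. Mest, whose RNA rises in expanding fat of mice, differed by 1.68 ± 0.47 (adjusted p = 0.0153), and Sfrp5, a secreted Wnt antagonist of adipocytes, by 1.37 ± 0.39 (adjusted p = 0.0167). Oxtr, the oxytocin receptor gene, had 4.49, 20.2 and 74.4 CPM with semaglutide and 3.44, 8.01 and 13.4 CPM after the switch (1.88 ± 0.47, adjusted p = 0.00732). None of these 4 calls held without diet-switch 3, 4 and 7, where the adjusted p was 0.0953 for Lep, 0.0622 for Mest, 0.0594 for Sfrp5 and 0.0761 for Oxtr. The log2 fold changes of the 4 genes did not shrink in that fit, at 1.072, 1.928, 1.555 and 1.924 in the same order. Without the muscle-high libraries the calls of Lep and Oxtr ended as well (adjusted p = 0.0550 and 0.0537).

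Of 11 adipokines 18.2% were called, near the 13.3% in either direction among all genes. Lep was higher and Nrg4, a neuregulin secreted by adipocytes, was lower (-0.89 ± 0.20, adjusted p = 0.00273), a call that ended without diet-switch 3, 4 and 7 (adjusted p = 0.174). Adipoq, the adiponectin gene, had 1379, 2375 and 3138 CPM with semaglutide and 1529, 2443 and 2883 CPM after the switch (-0.06 ± 0.17, adjusted p = 0.857). Cfd, which encodes the complement protease adipsin, had 888, 3209 and 7877 CPM with semaglutide and 3228, 3903 and 7672 CPM after the switch (-0.38 ± 0.32, adjusted p = 0.467). Neither passed the test here. On HFD alone Cfd was far lower than on ND (-2.81 ± 0.34, adjusted p = 3.83e-07), and the difference of the differences was 2.43 ± 0.46 (adjusted p = 0.00187).

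Other genes were higher with semaglutide in every fit that left out libraries. Igfbp3, which encodes a carrier of insulin-like growth factors, had 17.4, 22.2 and 27.5 CPM with semaglutide and 2.38, 7.76 and 11.9 CPM after the switch (1.64 ± 0.29, adjusted p = 1.98e-04), with no overlap. Plp2, a membrane proteolipid gene, had 7.21, 19.4 and 28.0 CPM with semaglutide and 0.308, 4.73 and 13.3 CPM after the switch (1.79 ± 0.38, adjusted p = 0.00146). Id3, an inhibitor of helix-loop-helix factors picked after its values were seen, had 90.2, 179 and 224 CPM with semaglutide and 23.4, 54.3 and 110.1 CPM after the switch (1.41 ± 0.23, adjusted p = 8.91e-05).

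Genes of lipid uptake, storage and oxidation moved differently in semaglutide against the switch than in HFD against ND. The difference of the 2 differences, (semaglutide minus diet switch) minus (HFD minus ND), tests this directly, and the 2 comparisons share no library. It was called for 862 genes (5.45%), 449 positive (2.84%) and 413 negative (2.61%). Of 12 genes of fatty acid uptake and binding, 7 were higher on HFD than on ND (2.83% among all genes) with a median of 0.81, whereas with semaglutide none was higher than after the switch, 1 was lower, and the median was -0.20. The difference of differences was negative and called for 6 of the 12, and for 5 to 7 of them without the lymphocyte-high, muscle-high or outlying diet-switch libraries. Acsl1, which activates long-chain fatty acids, had 390.3, 733 and 1474 CPM with semaglutide, 624, 1159.5 and 1698 CPM after the switch, 995, 1394 and 2219.9 CPM on HFD and 456, 601 and 828 CPM on ND. It was higher on HFD than on ND by 1.34 ± 0.21 (adjusted p = 2.71e-05), while semaglutide against the switch gave -0.37 ± 0.21 (adjusted p = 0.234), and the difference of differences was -1.71 ± 0.29 (adjusted p = 4.24e-04). For Angptl4, an inhibitor of lipoprotein lipase, Vldlr, a lipoprotein receptor, and Fabp5, a fatty acid binding protein, the differences of differences were -1.39 ± 0.31, -1.15 ± 0.28 and -1.12 ± 0.28 (adjusted p = 0.00668, 0.0119 and 0.0123).

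The 6 genes with the smallest p in the difference of differences were Rbp7, Noct, Plin2, Plin5, Prps1 and Tmem120a. Rbp7, a retinol-binding protein gene, had 3.17, 8.40 and 10.9 CPM with semaglutide and 7.37, 20.0 and 44.9 CPM after the switch (-1.59 ± 0.27, adjusted p = 1.22e-04), against 10.1, 14.2 and 22.9 CPM on HFD and 3.43, 5.53 and 8.32 CPM on ND (1.44 ± 0.28, adjusted p = 5.92e-04). So it was lower in the first comparison and higher in the second, with a difference of differences of -3.03 ± 0.39 (adjusted p = 7.71e-06). Plin2, the perilipin of small lipid droplets and of lipid-laden macrophages, had 135, 204 and 282 CPM with semaglutide and 254, 323 and 460.0 CPM after the switch (-0.70 ± 0.15, adjusted p = 0.00235), against 326, 443 and 596 CPM on HFD and 191, 265 and 348 CPM on ND (0.74 ± 0.15, adjusted p = 0.00148), and its difference of differences was -1.44 ± 0.22 (adjusted p = 1.82e-04). For the other 4 it was -2.02 for Noct, a circadian phosphatase, -2.40 for Plin5, the perilipin of oxidative tissue, -1.88 for Prps1, of nucleotide synthesis, and -1.45 for Tmem120a, a nuclear envelope protein of fat cells (adjusted p = 5.12e-05, 1.94e-04, 2.29e-04 and 2.29e-04). Over the 10 lipid droplet genes 3 (30%, against 7% among all genes) were lower with semaglutide (Plin2, Plin5 and Cidea). On HFD against ND 4 were higher (2.83% among all genes). The difference of differences was negative for 5 (2.61% among all genes), or for 2 to 4 without the libraries that stood apart. The call of Plin5 between semaglutide and switch (-0.74 ± 0.26, adjusted p = 0.0481) was lost without most single libraries.

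**Figure D3:**
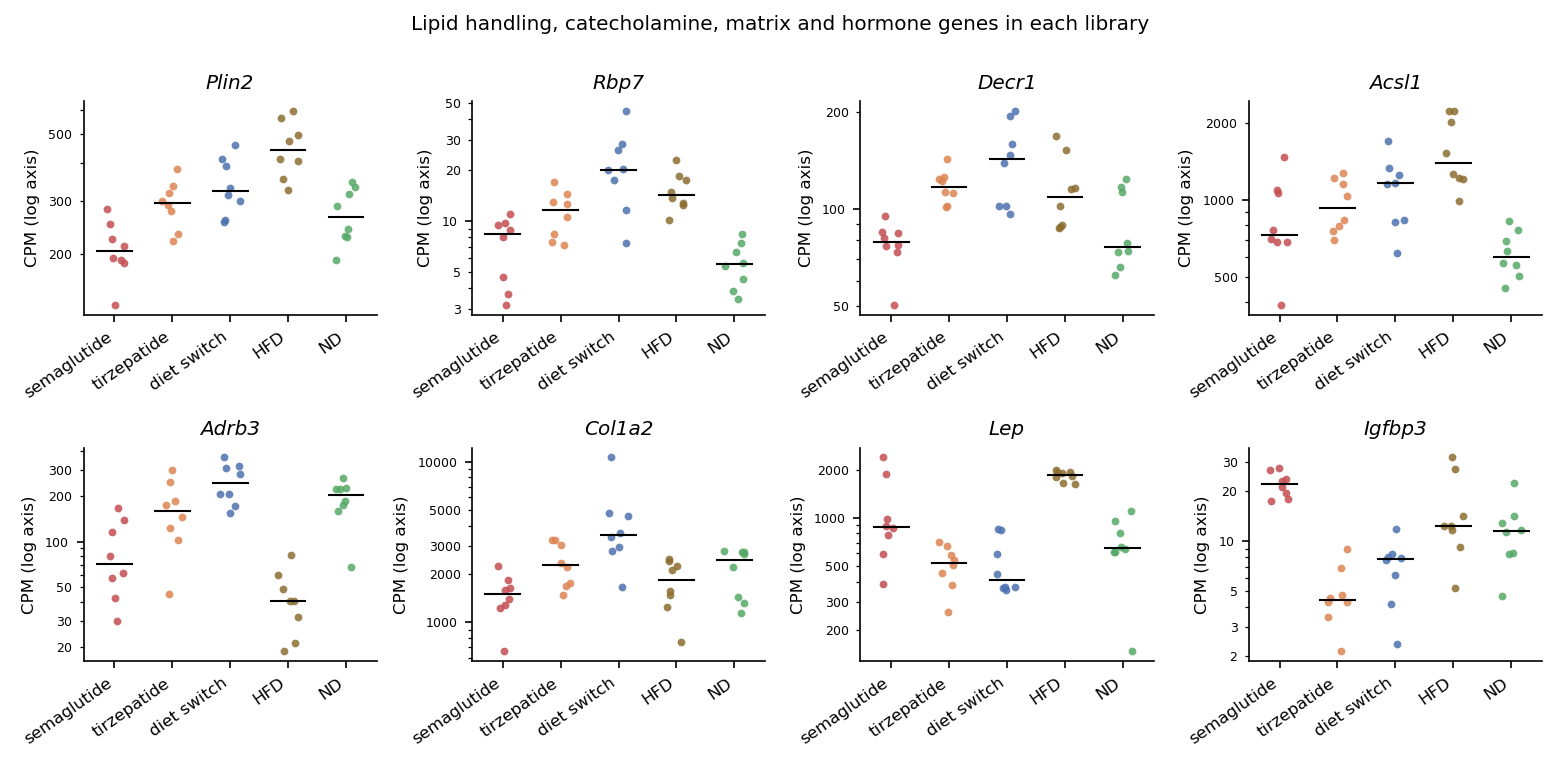
Levels in CPM (log axis) of Plin2, Rbp7, Decr1, Acsl1, Adrb3, Col1a2, Lep and Igfbp3 in each library of the 5 groups, with bars at the group medians (n = 8 per group). The medians of Plin2, Rbp7 and Acsl1 are higher in HFD than in ND libraries but not in semaglutide than in diet-switch libraries, and Igfbp3 is higher in all semaglutide than in all diet-switch libraries.

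Some fatty acid oxidation genes were lower with semaglutide, in contrast to HFD against ND. Of 24 genes 8 were lower with semaglutide than after the switch (33.3%, against 7% among all genes) and none was higher (median -0.15). In contrast, 6 were higher (2.83% among all genes) and none lower on HFD than on ND (median 0.32). The difference of differences was negative for 8 (2.61% among all genes). Decr1, a dienoyl-CoA reductase, had 50.5, 79.3 and 95.0 CPM with semaglutide and 96.5, 143 and 202 CPM after the switch (-0.87 ± 0.17, adjusted p = 4.56e-04), with no overlap. Etfb, which passes electrons from acyl-CoA dehydrogenases, differed by -0.82 ± 0.15 (adjusted p = 3.00e-04), and Crat, carnitine acetyltransferase, by -0.80 ± 0.15 (adjusted p = 3.98e-04). Eci2, an enoyl-CoA isomerase, differed by -0.65 ± 0.14 (adjusted p = 0.00250), and that call ended without diet-switch 3, 4 and 7 (adjusted p = 0.0542). Cpt1a, the liver-type carnitine palmitoyltransferase, had 27.2, 42.5 and 53.9 CPM with semaglutide and 26.2, 34.0 and 44.7 CPM after the switch (0.26 ± 0.16, adjusted p = 0.277). The number of lower genes was 4 without the lymphocyte-high libraries and 3 without diet-switch 3, 4 and 7, and the number with a negative difference of differences was 5 in both. The difference of differences of Decr1 (-1.25 ± 0.23, adjusted p = 0.00122), Etfb (-1.11), Eci2 (-0.99) and Slc25a20 (-1.18), the carnitine carrier, was called in each of these fits.

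Adrb3, the main lipolytic adrenergic receptor gene of mouse adipocytes, had 30.0, 71.4 and 168 CPM with semaglutide and 154, 243 and 361 CPM after the switch (-1.53 ± 0.34, adjusted p = 0.00281), and without diet-switch 3, 4 and 7 the adjusted p was 0.0735. Of the 12 genes of adrenergic control and lipolysis 3 were lower (25%, against 7% among all genes). Besides Adrb3 they were Mgll, monoglyceride lipase (-0.63), and Pde3b, the insulin-activated phosphodiesterase (-0.61). The calls of Mgll and Pde3b did not hold without the same libraries (adjusted p = 0.133 and 0.344).

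**Figure D4:**
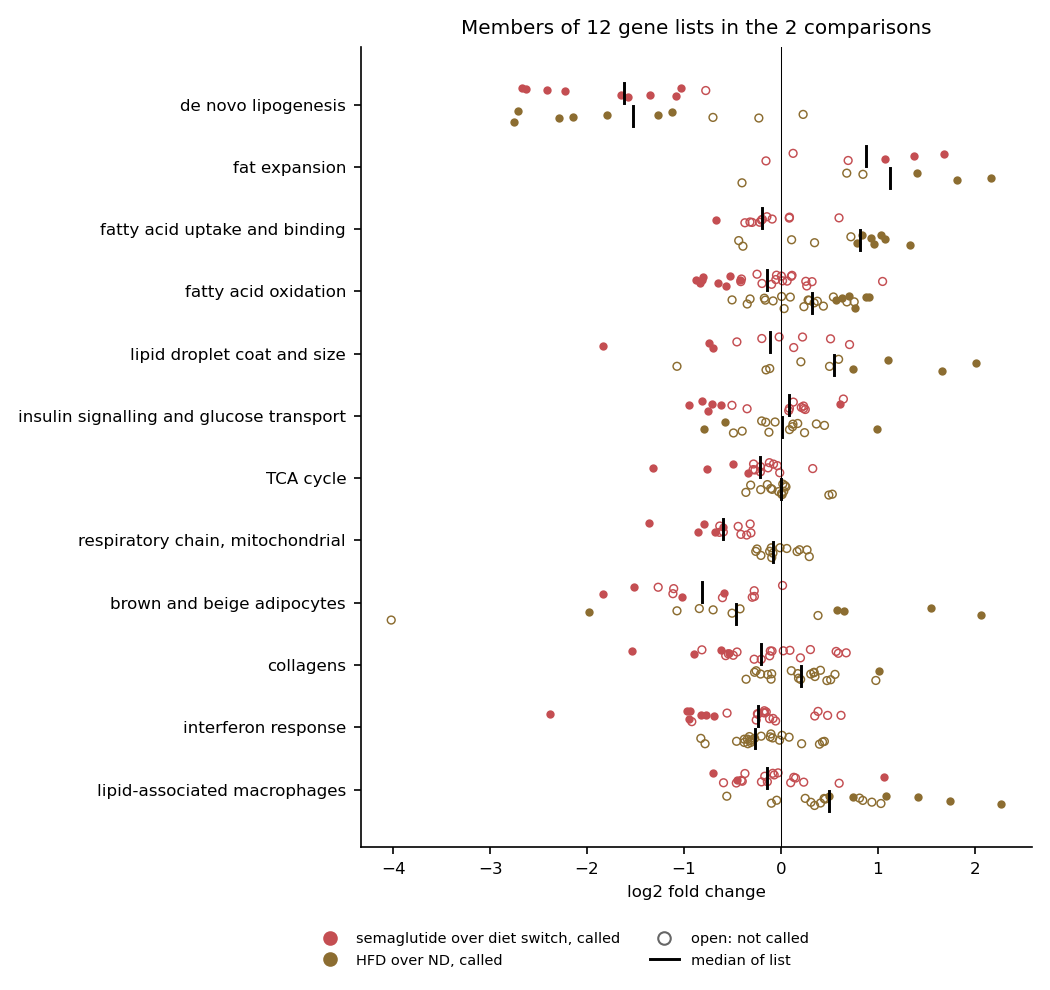
Log2 fold changes of the tested members of 12 gene lists, semaglutide over diet switch in red and HFD over ND in brown, with filled points for called genes and black bars at the list medians. De novo lipogenesis lies below 0 in both comparisons (medians -1.62 and -1.53), whereas fatty acid uptake lies around -0.20 in the first and 0.81 in the second.

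Some mitochondrial genes were lower with semaglutide, and few of these calls held without diet-switch libraries 3, 4 and 7. Of 13 transcripts of the mitochondrial genome 5 were lower (38.5%, against 7% among all genes) and all 13 had a log2 fold change below 0 (median -0.60). mt-Co3, a cytochrome oxidase subunit, differed by -0.79 ± 0.20 (adjusted p = 0.00695), mt-Nd4, a complex I subunit, by -0.86 ± 0.24 (adjusted p = 0.0124), and mt-Nd2 by -1.36 ± 0.28 (adjusted p = 0.00123). Mitochondrial transcripts made up 9.16% to 14.8% of counts in semaglutide libraries and 10.5% to 20.7% in diet-switch libraries. The share of 18S ribosomal RNA, another measure of library make-up, was 2.86%, 6.8% and 8.23% (lowest, median and highest) with semaglutide and 3.56%, 4.685% and 6.13% after the switch, and its part in the results was not tested. Of 23 nuclear respiratory chain genes 3 were lower (median -0.17), and of 15 TCA cycle genes 4 (median -0.21). The called shares were 13% and 26.7%, the first near the 13.3% called in either direction among all genes (7% lower). Without diet-switch 3, 4 and 7 the numbers of lower genes in the 3 lists were 1, 0 and 0, and mt-Co3 was the one still called. In that fit mt-Co3 differed by -0.82, mt-Nd4 by -0.76 and mt-Nd2 by -0.50.

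Genes of brown and beige adipocytes were lower in part. Of 12 tested, 4 were lower (33.3%, against 7% among all genes) and none higher (median -0.81). Kcnk3, a potassium channel gene of beige cells, differed by -1.01 ± 0.18 (adjusted p = 1.82e-04), and its call held without each set of libraries. Cidea, a droplet protein of brown fat, differed by -1.84 ± 0.48 (adjusted p = 0.0106), Cox8b, a cytochrome oxidase subunit, by -1.51 ± 0.39 (adjusted p = 0.00981), and Slc36a2, an amino acid transporter, by -0.59 ± 0.16 (adjusted p = 0.0140). The 3 calls ended without diet-switch 3, 4 and 7 (adjusted p = 0.0811, 0.133 and 0.0760). The summed level of the brown and beige list was 211, 270.3 and 345.3 CPM in semaglutide libraries, against 376.4, 443.3 and 803.1 CPM in diet-switch libraries. Ucp1, the uncoupling protein itself, had 0, 0 and 11.4 CPM with semaglutide and 0, 2.71 and 9.23 CPM after the switch (-1.11 ± 1.13, adjusted p = 0.552). That value rests on semaglutide 8, at 11.4 CPM with the other 7 at 0.676 CPM or less. Without it Ucp1 was lower with semaglutide (-4.29, adjusted p = 0.0403), and without the lymphocyte-high libraries, which include it, the value was -5.35 (adjusted p = 0.0628).

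Some collagens were lower with semaglutide. Of 21 collagens 4 were lower and none higher (median -0.20) against 7% lower among all genes, and the interstitial chains Col1a2 and Col3a1 were among them. Col1a2 had 661, 1497 and 2237 CPM with semaglutide and 1670.0, 3518 and 10669 CPM after the switch (-1.54 ± 0.28, adjusted p = 2.60e-04), and Col3a1 had 693, 1222 and 1718 CPM with semaglutide and 1382, 2264 and 3683 CPM after the switch (-0.89 ± 0.17, adjusted p = 4.86e-04). Both calls held in each fit that left out libraries. Col1a1, the partner chain of Col1a2, had 633, 1152 and 1709 CPM with semaglutide and 616, 1311 and 3652 CPM after the switch (-0.54 ± 0.25, adjusted p = 0.146) and did not pass, but without diet-switch 3, 4 and 7 it was lower, by -0.89 (adjusted p = 0.0482). Col4a1 of basement membranes differed by -0.54 and Col6a3 by -0.62. The call of Col4a1 ended without diet-switch 3, 4 and 7 (adjusted p = 0.0744) and that of Col6a3 without the lymphocyte-high libraries (adjusted p = 0.0521). For Col3a1 the difference of differences was -1.07 ± 0.24 (adjusted p = 0.00741), with HFD against ND at 0.17 ± 0.17 (adjusted p = 0.647).

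Of 38 other matrix genes 5 were lower and none higher. The called share was 13.2%, near the 13.3% called in either direction among all genes (7% lower). Mmp3, a matrix metalloproteinase, had 14.7, 25.8 and 40.0 CPM with semaglutide and 31.1, 53.8 and 149.8 CPM after the switch (-1.22 ± 0.27, adjusted p = 0.00257), and Lum, the collagen-binding proteoglycan lumican, had 21.4, 30.8 and 45.7 CPM with semaglutide and 17.4, 57.6 and 127 CPM after the switch (-1.03 ± 0.25, adjusted p = 0.00470). Markers of fibroblasts and progenitors, the cells that make most matrix proteins, had a summed level of 800.6, 1110 and 1333 CPM in semaglutide libraries and 1224, 1591 and 1949 CPM in diet-switch libraries. Such a sum is weighted to the most abundant markers. The mean log2 CPM over the list averaged 5.094 in semaglutide and 5.071 in diet-switch libraries, and the list's median log2 fold change was -0.03. Of the 12 tested 25% were called, against 13.3% in either direction among all genes. Of these markers 1 was higher (Dpp4, 1.20) and 2 were lower (Dpt, -0.88, and Pdgfra, -0.52). Their part in the collagen difference was not tested.

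Macrophage lists had shares of called genes near the 13.3% called in either direction among all genes. Of 19 genes of lipid-associated macrophages, the lipid-holding macrophages of obese fat, 1 was higher and 2 were lower (15.8% called, median -0.14). On HFD against ND 6 were higher (2.83% among all genes) and none lower (median 0.50). Itgax, which encodes the integrin CD11c, had 8.27, 11.1 and 15.5 CPM with semaglutide and 3.13, 5.79 and 7.38 CPM after the switch (1.07 ± 0.30, adjusted p = 0.0152), with no overlap. Without diet-switch 3, 4 and 7 its log2 fold change was 1.15 (adjusted p = 0.0841), and without the lymphocyte-high libraries 0.88 (adjusted p = 0.0974). Trem2, the lipid receptor of these macrophages, had 1.58, 8.67 and 36.0 CPM with semaglutide and 2.42, 8.93 and 28.6 CPM after the switch (-0.03 ± 0.43, adjusted p = 0.973), and Ccl2, a monocyte attractant, had 3.80, 8.42 and 21.6 CPM with semaglutide and 0.853, 6.07 and 25.8 CPM after the switch (0.23 ± 0.45, adjusted p = 0.779). The 14 resident macrophage genes had 1 call each way (14.3%), and so had the 15 inflammatory mediators (13.3%). The higher ones were Timd4 (2.34), an apoptotic cell receptor, and Ccl5 (2.42), a chemokine that T cells also make, and both calls ended without semaglutide 1.

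Some interferon-induced genes were lower with semaglutide. Of 23 tested 7 were lower (30.4%, against 7% among all genes) and none higher (median -0.24). Ifi44 had 2.47, 3.75 and 4.77 CPM with semaglutide and 5.63, 21.8 and 29.7 CPM after the switch (-2.38 ± 0.48, adjusted p = 0.00102), with no overlap, and was called in every fit that left out libraries. Rsad2, which encodes the antiviral protein viperin, differed by -0.95 ± 0.24 (adjusted p = 0.00715), Oasl2 by -0.77 ± 0.21 (adjusted p = 0.0116) and Ifi27l2a by -0.93 ± 0.19 (adjusted p = 0.00127), and these 3 calls ended without diet-switch 3, 4 and 7 (adjusted p = 0.141, 0.139 and 0.209). Without those libraries the 3 genes differed by -0.72, -0.67 and -0.44, and 1 gene of the list was called. Ubd, an interferon-inducible ubiquitin-like modifier, was higher with semaglutide (1.51 ± 0.43, adjusted p = 0.0173), a call that ended without semaglutide 3. It also ended without the lymphocyte-high, the muscle-high or the 3 outlying diet-switch libraries (adjusted p = 0.0654, 0.0748 and 0.0859). On HFD against ND the log2 fold change of Ubd was 4.80 ± 0.48 (adjusted p = 2.10e-08) and the difference of differences -3.29 ± 0.64 (adjusted p = 0.00250).

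The largest differences were taken over called genes whose 8 libraries in each group lay beyond the other group's median, leaving out the skeletal muscle, B cell, T cell, red blood cell and major urinary protein (Mup) lists, and the higher ones included several genes of blood cells. The 12 were Map4k1 (2.78), Arhgap45 (2.27), Krtdap (2.26), Kif21b (2.15), 1700047G03Rik (2.12), Cd52 (2.06), Hcst (2.04), Gm19246 (1.91), Plp2 (1.79), Gm11572 (1.79), Gm44510 (1.70) and D630033A02Rik (1.68). Map4k1 is a kinase of blood cells, Arhgap45 a minor histocompatibility antigen, Cd52 a lymphocyte surface peptide and Hcst an adaptor of natural killer and T cells. Map4k1 had 2.85, 6.80 and 65.0 CPM with semaglutide and 0.319, 1.95 and 6.30 CPM after the switch. Without the lymphocyte-high libraries its log2 fold change was 1.06 (adjusted p = 0.111), and Arhgap45, Kif21b, Cd52, Hcst, Gm11572, Gm44510 and D630033A02Rik were not called either. All 3 tested B cell genes and 6 of 7 tested T cell genes were higher (6.29% among all genes). The summed T cell level was 9.495, 27.2 and 768.7 CPM in semaglutide libraries and 13.06, 14.23 and 52.86 CPM in diet-switch libraries. None of these genes was called without the lymphocyte-high libraries. Those libraries were set aside by the level of the same B cell genes, so this loss of calls follows in part from the choice. Plp2 was the only one of the 12 called in each fit that left out libraries.

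The 17 Mup genes so left out had log2 fold changes of -4.61 to -3.96, beyond any gene of the next group. By the same rule, the 12 largest on the lower side were Fasn, Elovl6, Acly and Acaca of lipogenesis, the interferon-induced Ifi44 and Ifi205 (-1.97), Cyp2e1 (-2.08), a cytochrome P450, and Phf20-ps (-2.30), Gm5470 (-2.11), B830012L14Rik (-2.10), Gm10599 (-2.07) and Gm38157 (-1.97), which have no described role here. All but Cyp2e1 were called in each fit that left out libraries, and Cyp2e1 was not called without diet-switch 3, 4 and 7 (adjusted p = 0.0677). Pseudogenes such as Phf20-ps can share reads with their parent genes, so their values are uncertain.

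The diet difference between HFD and ND shared some of its genes with semaglutide against the switch. Of the 2101 genes called, 1191 (56.7%) had the same sign in HFD against ND, beside 54.2% over all genes. The first share was 75.7% without diet-switch 3, 4 and 7, 66.8% without the lymphocyte-high libraries and 52.6% without the muscle-high ones, and ran from 52.7% (without HFD 2) to 66.9% (without semaglutide 1) over the fits that left out 1 library. Called in both comparisons were 170 genes, 8.09% of the 2101 and 23.9% of the 712 (4.5%) called between HFD and ND. Of these 144 had the same sign, 64 higher and 80 lower, and 26 the opposite sign. Of the 265 lower on HFD, 80 were lower and 7 higher with semaglutide than after the switch, and their median was -0.41. Of the 447 higher on HFD, 64 were higher and 19 lower, their median was 0.19, and the difference of differences was negative and called for 143. Across the 15807 genes, which are not independent, Pearson's r of the log2 fold changes was 0.18 and Spearman's rho 0.12.

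**Figure D5:**
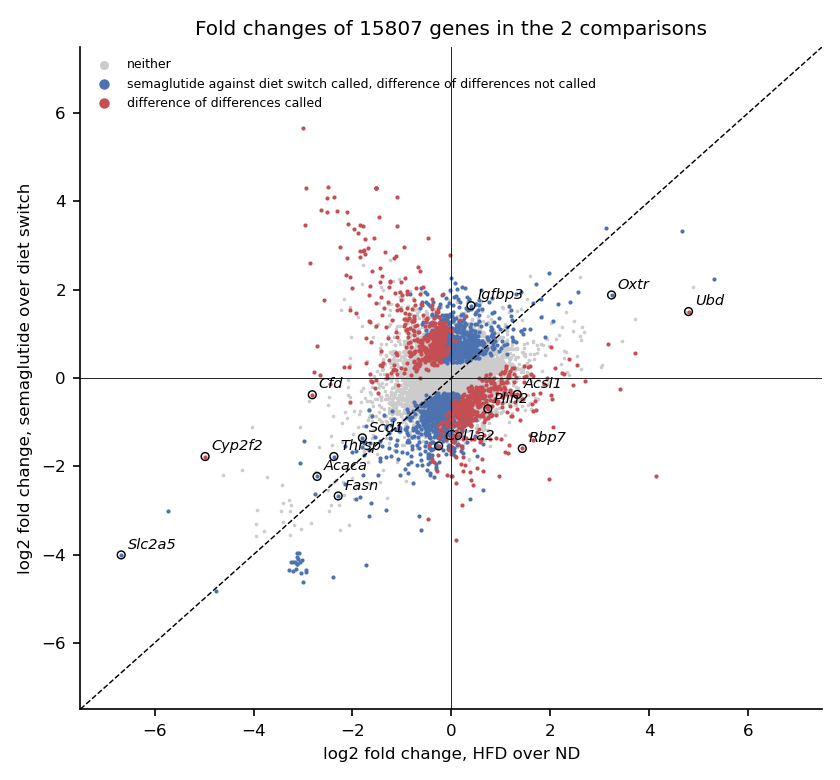
Log2 fold changes of all 15807 tested genes, HFD over ND (x) against semaglutide over diet switch (y), with called differences of the differences in colour and the dashed line at equality. The lipogenic genes lie low on both axes near the line, whereas Rbp7, Plin2 and Acsl1 lie to the right and below it.

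De novo lipogenesis was lower in both comparisons. On HFD against ND 7 of its 10 genes were lower (1.68% among all genes) with a median of -1.53, Fasn at -2.29 ± 0.35 (adjusted p = 3.45e-05) and Acaca at -2.71 ± 0.27 (adjusted p = 8.27e-09), and for none of the 10 was the difference of differences called. A difference of differences that misses the threshold does not show that the 2 are equal. Mlxipl (1.19 ± 0.24, adjusted p = 0.00299) and Gpx3 (1.73 ± 0.33, adjusted p = 0.00198), a secreted glutathione peroxidase with 166, 347 and 696 CPM with semaglutide and 245, 339.5 and 765 CPM after the switch (0.09 ± 0.23, adjusted p = 0.834), had positive differences of differences, being lower on HFD than on ND (-1.10 and -1.64) but not lower with semaglutide. For Per2, a core clock gene, semaglutide against the switch gave -0.20 ± 0.24 (adjusted p = 0.615), HFD against ND gave 1.08 ± 0.26 (adjusted p = 0.00734), and the difference of differences -1.28 ± 0.35 (adjusted p = 0.0242), which was not called without the lymphocyte-high libraries (adjusted p = 0.0999).

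Tirzepatide libraries came from mice also kept on HFD. Between tirzepatide and the switch 63 genes (0.399%) were called, and 8 of the 10 lipogenic genes were among the 45 lower ones (0.285%), while 18 genes were higher (0.114%). Between semaglutide and tirzepatide 1584 genes (10%) were called, 935 higher (5.92%) and 649 lower (4.11%) with semaglutide. The comparisons share libraries, so their counts are not independent. Fasn had 301, 436 and 1141 CPM with semaglutide, 345, 838 and 2412 CPM with tirzepatide and 635, 2708 and 6492 CPM after the switch. Gys1 had 89.5, 109 and 152 CPM with tirzepatide, against the semaglutide and switch values given above, and semaglutide differed from tirzepatide by -0.998 ± 0.18 (adjusted p = 6.08e-04). Slc2a4 (-0.94 ± 0.15, adjusted p = 1.71e-04) and Acacb (-1.27 ± 0.23, adjusted p = 6.77e-04) were lower with semaglutide than with tirzepatide too, while Igfbp3 (2.15 ± 0.30, adjusted p = 6.26e-05), Plp2 (2.14 ± 0.38, adjusted p = 5.81e-04) and Lep (1.10 ± 0.29, adjusted p = 0.0139) were higher. Igfbp3 had 17.4, 22.2 and 27.5 CPM with semaglutide and 2.15, 4.40 and 8.92 CPM with tirzepatide.

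Against HFD, 656 genes (4.15%) were called with semaglutide, 241 higher (1.52%) and 415 lower (2.63%), and 3759 (23.8%) after the switch, 2030 higher (12.8%) and 1729 lower (10.9%). Against ND, 417 genes (2.64%) were called with semaglutide, 143 higher (0.905%) and 274 lower (1.73%), and 2338 (14.8%) after the switch, 1260 higher (7.97%) and 1078 lower (6.82%). For lipogenesis, 6 of the 10 genes were higher and 1 lower after the switch than on HFD. With semaglutide 4 of the 10 were lower and 0 higher than on HFD. Beside the semaglutide levels given above, Fasn had 635, 2708 and 6492 CPM after the switch, 736, 1036 and 1247 CPM on HFD and 2936, 4577 and 6859 CPM on ND.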

How the data were processed

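The authors deposited a table of raw counts per gene symbol for 40 QuantSeq libraries of subcutaneous white adipose tissue, made from RNA extracted with Nucleozol, per the labels' protocols. The genome build was mm10, per the submitters' processing notes, while no aligner, counter or annotation is named (not given in the sources used here). A deposited table of normalized values was not used. Groups came from the sample titles, and library numbers run by group, so order and group cannot be told apart.

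Genes were filtered with filterByExpr, scaled with TMM and fitted with edgeR 4.0.16 (R 4.3.3), robust quasi-likelihood, the 40 libraries in 1 fit with 1 mean per group. Calls are at a Benjamini-Hochberg adjusted p under 0.05 over all 15807 genes. Each SE was taken as the absolute log2 fold change divided by the square root of its F statistic, so it rests on the spread in all groups. CPM values use TMM library sizes. Totals of 2802605 to 4440695 counts in the 16 libraries limit precision at low levels, and the median SE was 0.24. The closest pair of libraries within a group had a chi-square per degree of freedom of 3.99, so none were copies. The steps were tested on simulated data.

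The genes named are 26 markers, the 12 largest called changes in each direction with a mean log2 CPM of 2 or more, all libraries beyond the other group's median and outside the muscle, B cell, T cell, red blood cell and Mup lists, up to 4 called members of each list described, and the 6 genes with the smallest p in the difference of differences. The members and lists were chosen with earlier results of these data known, and Gys1, Pygl, Slc2a5, Id3, Acsl1, Angptl4, Vldlr, Fabp5, Slc25a20 and the members given only in the list counts (Acss2, Scd2, Slc25a1, Dpp4, Dpt, Pdgfra) were added after their values were seen. Libraries were set aside where the mean log2 CPM over the tested genes of the B cell list (3 of 8) or muscle list (13 of 15) was over 5, or the position on the axis over 50. The summed levels in CPM use all listed genes in the count table. Alternatives were DESeq2 1.42.0, limma 3.58.1 voom with quality weights, other filters and scalings, a replicate block, a threshold of 1.5-fold, a GC correction and left-out libraries. Gene coordinates are from GENCODE M21 and promoters from RefSeq, GRCm38.p6.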

Additional observations from a re-analysis of the deposited data

Results flagged for a closer look

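For 11 of 232 gene and group pairs checked, 1 library of 8 lay apart, with a gap to its nearest neighbour, as a share of the group's whole range, above Dixon's 95% critical value, and chance alone gives this for about 1 in 20 groups. The gap, as a share of the range, follows each gene. Diet-switch 5 was the highest for Mmp3 (0.549). Semaglutide 1 was the lowest for Decr1 (0.598), Ifi205 (0.541), Mest (0.657), Pdha1 (0.569) and Scd1 (0.637). Semaglutide 1 was the highest for Gm44510 (0.638). Semaglutide 3 was the lowest for Id3 (0.597) and Tkt (0.532). Semaglutide 8 was the highest for Elovl6 (0.602) and Ucp1 (0.733).

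The difference of differences, (semaglutide minus diet switch) minus (HFD minus ND), was called for 47 genes named in the text, given here on the log2 scale with its test in edgeR. It was negative for genes of lipid uptake, storage and use, Rbp7 (-3.03), Plin2 (-1.44), Plin5 (-2.40), Acsl1 (-1.71), Angptl4 (-1.39), Vldlr (-1.15), Fabp5 (-1.12), Etfb (-1.11), Decr1 (-1.25), Eci2 (-0.99), Slc25a20 (-1.18) and Mgll (-1.36). Negative values were also found for genes of sugar use, mitochondria and beige adipocytes, Gys1 (-1.10), Grb14 (-1.31), mt-Nd2 (-1.65), Kcnk3 (-1.40) and Slc36a2 (-1.17). In the matrix they were Col1a2 (-1.28), Col3a1 (-1.07), Col6a3 (-1.03), Col4a1 (-0.85) and Lum (-1.36). Interferon-induced genes with a negative value were Ubd (-3.29), Ifi27l2a (-1.36) and Rsad2 (-1.35). The remaining negative ones were Per2 (-1.28), Phf20-ps (-2.69), Gm5470 (-1.82), B830012L14Rik (-2.74), Gm38157 (-2.25), Noct (-2.02), Prps1 (-1.88), Tmem120a (-1.45) and Sgk1 (-1.61). Positive values were found for genes whose call ended without the lymphocyte-high libraries, Map4k1 (2.81), Arhgap45 (3.20), Cd52 (2.64), Hcst (2.75), Timd4 (4.46), Ccl5 (4.02), Gm19246 (2.07) and Gm11572 (2.19), and for Mlxipl (1.19), Cfd (2.43), Gpx3 (1.73), Cyp2f2 (3.20) and Id3 (1.11). The calls of Per2, Map4k1, Arhgap45, Cd52, Hcst, Gm19246, Gm11572, Gm5470, Gm38157, Grb14, mt-Nd2, Timd4, Ifi27l2a, Rsad2, Gys1 and Id3 ended without diet-switch 3, 4 and 7. Apart from the genes named above, those of Per2, Gm5470, Grb14, Rsad2, Col1a2, Col4a1 and Gys1 ended without the lymphocyte-high libraries.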

How the results depend on the processing

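Without a filter, with DESeq2 size factors and with a stricter filter, the counts of higher and lower genes stayed within 1.5 times the reported 994 and 1107. Tested against a 1.5-fold change, 13 genes were higher, 91 lower and 77 called in the difference of differences. Without the lymphocyte-high libraries (semaglutide 1, 3 and 8, and ND 5) these counts were 511, 719 and 307, without diet-switch 3, 4 and 7 they were 55, 221 and 202, and with that axis as a covariate 212, 292 and 423. Without the muscle-high libraries (diet-switch 1, 3 and 6, tirzepatide 1, 4, 5 and 7, HFD 4, ND 6 and 8) 576 genes were higher, and without lymphocyte-high and muscle-high libraries 464 were higher and 676 lower. In a fit of the 2 groups alone 469 were higher, and DESeq2 called 1298 genes in the difference of differences. Leaving out 1 library at a time gave 589 to 1375 higher, 743 to 1422 lower and 494 to 1266 in the difference of differences, the last falling to 494 without semaglutide 1, 562 without ND 5 and 564 without HFD 3. Of 118 called genes among the 147 that the naming rule gives, 52 kept their call without diet-switch 3, 4 and 7, 81 without the lymphocyte-high libraries, 100 without the muscle-high ones and 30 against 1.5-fold, and none reversed. The difference of differences of Cd52 was -0.18 without the lymphocyte-high libraries, against 2.64. The cause of these changes was not tested. The settings that leave out library sets, the axis and the GC correction were chosen after seeing the data.

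The labels number the libraries 1 to 8 in each group. Deviations of same-numbered semaglutide and diet-switch libraries correlated between -0.07 and 0.18, and 2 of 8 semaglutide libraries matched their own number best, so the samples share only a number. With the replicate block 1099 genes were higher, 1095 lower and 833 called in the difference of differences, and 112 of the 118 named genes kept their call. Log2 fold changes correlated with transcript GC content at r = 0.16 over 15125 genes, and with a GC correction 978 genes were higher and 1264 lower. A gene that misses the threshold may still differ, since the median SE of 0.24 leaves small changes undetected.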

Other observations

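Major urinary protein (Mup) genes, which encode pheromone carriers made mainly in liver and also found in mouse fat, were lower with semaglutide. All 17 tested were lower than after the switch (7% among all genes, median -4.17). All 17 were also lower on HFD than on ND (1.68% among all genes, median -3.12). Against HFD, 0 of the 17 were called with semaglutide, and all 17 were higher after the switch (12.8% among all genes). Mup10 had 0.682, 3.97 and 6.97 CPM with semaglutide and 15.8, 61.9 and 219 CPM after the switch (-4.38 ± 0.64, adjusted p = 6.16e-05), with no overlap, and it was called in each fit that left out libraries. The Mup genes are near-identical copies among which reads may be split, so the value of each is uncertain. Of 20 genes of xenobiotic metabolism 3 were higher and 4 lower (35% called, against 13.3% among all genes). Gsta4, a glutathione transferase for lipid aldehydes, differed by -1.54 ± 0.29 (adjusted p = 3.15e-04) and Cyp2f2, a cytochrome P450, by -1.78 ± 0.44 (adjusted p = 0.00742), and the call of Gsta4 held in each fit that left out libraries. That of Cyp2f2 ended when lymphocyte-high and muscle-high libraries were left out together, and that of Ephx1, an epoxide hydrolase (0.77), ended without diet-switch 3, 4 and 7 (adjusted p = 0.153).

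Of 12 glucocorticoid-responsive genes 4 were lower (33.3%, against 7% among all genes). Zbtb16, a zinc finger factor induced by glucocorticoids, had 23.0, 28.9 and 54.6 CPM with semaglutide and 33.5, 93.3 and 241 CPM after the switch (-1.80 ± 0.32, adjusted p = 2.89e-04), and Sgk1, a kinase of the same response, differed by -0.82 ± 0.23 (adjusted p = 0.0148). Both calls ended without diet-switch 3, 4 and 7 (adjusted p = 0.0558 and 0.344), with log2 fold changes of -0.94 and -0.47 in that fit. Of 23 antioxidant genes 21.7% were called, against 13.3% among all genes. Higher were 2, Sod3 (0.93), the extracellular superoxide dismutase, and Prdx5 (0.82), a peroxiredoxin, and 3 were lower, among them Gclm (-0.69), of glutathione synthesis. Without the same libraries none of these 3 named calls held (adjusted p = 0.135, 0.166 and 0.0654). None of the 11 core clock genes and none of the 18 cell cycle genes passed edgeR's test in this comparison.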
